A study of Homo sapiens with 13 samples.

Results

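LEF1 peaks of Nalm6 cells were compared between prednisolone and control over all 6 LEF1 peak lists of the series, out of 12 lists in all. The lists were chosen by the antibody in the labels, 3 from control cells and 3 from cells given prednisolone at 5 µM for 24 h. Together they held 1515867 of the 3429979 peaks of the series. Nalm6 is an established B-cell precursor leukaemia line, and prednisolone is a synthetic glucocorticoid used against such leukaemias. All cells of both groups grew in medium with charcoal-stripped serum, which is low in steroid hormones. The control is called a vehicle control in the treatment protocol and untreated in another label, so it is called control here. Each list came from CUT&RUN, in which an antibody tethers an enzyme that cuts out the DNA bound by its target, and these fragments are sequenced. The series' title sets glucocorticoid signalling beside canonical Wnt signalling, and the comparison asks where along the genome LEF1 peaks differed after the drug.

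LEF1 is a transcription factor of the TCF/LEF family and bends DNA through a high-mobility-group domain. It recruits beta-catenin when Wnt signalling is on, and corepressors of the Groucho/TLE family when it is off. In B-cell precursors LEF1 supports proliferation, and it is often highly expressed in acute lymphoblastic leukaemia. Glucocorticoids act through the glucocorticoid receptor NR3C1, a transcription factor that the hormone brings into the nucleus.

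The lists held 128863 to 389025 peaks and all ended at a peak p-value of 0.05. To keep list length from setting a result, peaks were ordered within each list by −log10 p, rank 1 being the strongest. The 20000 top peaks of the 6 lists were merged wherever they overlapped, which gave 36912 regions. In each library a region took the rank of its best peak, and the next rank after 100000 where none of the first 100000 peaks touched it. Peak 100000 had a −log10 p of 3.62, 3.04 and 3.22 in control 1, 2 and 3. In prednisolone 1, 2 and 3 it had 3.31, 3.32 and 2.26. A peak of the same p could thus be missed in control 1 and counted in prednisolone 3. The 16419 regions with a geometric mean rank of at most 20000 over the 6 libraries were tested with limma on −log2(rank). A region strong in a single group could pass this filter through that group alone. On this scale a difference of 1 means that the rank number was halved, and a positive difference means stronger after prednisolone. Calls had a Benjamini-Hochberg adjusted p under 0.05. The libraries also fell into sets by their shortest peak, 164 to 165 bp in control 1 and prednisolone 2 and 3, and 187 to 197 bp in the other libraries, and within-set values are given where these sets bear on a result. Nothing in the labels says what the sets are. The series describes the replicates as independent experiments.

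After prednisolone LEF1 ranked higher at 753 regions (4.59% of the 16419 tested) and lower at 528 (3.22%), which made 1281 changed regions (7.8%). The median difference was 2.76 among the stronger regions and −2.68 among the weaker ones. The stronger regions moved from a median geometric mean rank of 22872 in control cells to 2954 after the drug. That control median lay past the filter's limit on the mean rank. Most stronger regions thus passed the filter only through the prednisolone libraries, and the p-values of those regions are a description. The weaker regions moved from 2926 to 18879, which is within that limit. Both medians lay within the upper part of the lists in both treatments. Most had a peak in both groups: 8 stronger regions had no control peak among the first 100000, and 3 had none in any full control list. Of the weaker regions, 1 had no prednisolone peak among the first 100000, and 0 lacked one in all full prednisolone lists. Counts at the very top follow from calls made on the same ranks and are a description. A geometric mean rank of at most 1000 in control cells was held by 123 of the weaker regions and 14 of the stronger ones, against 905 of all 16419. After prednisolone it was held by 20 and 170, against 885 of all. The groups did not overlap at 742 of the stronger and 524 of the weaker regions, against 28.2% of all regions tested.

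**Figure D1:**
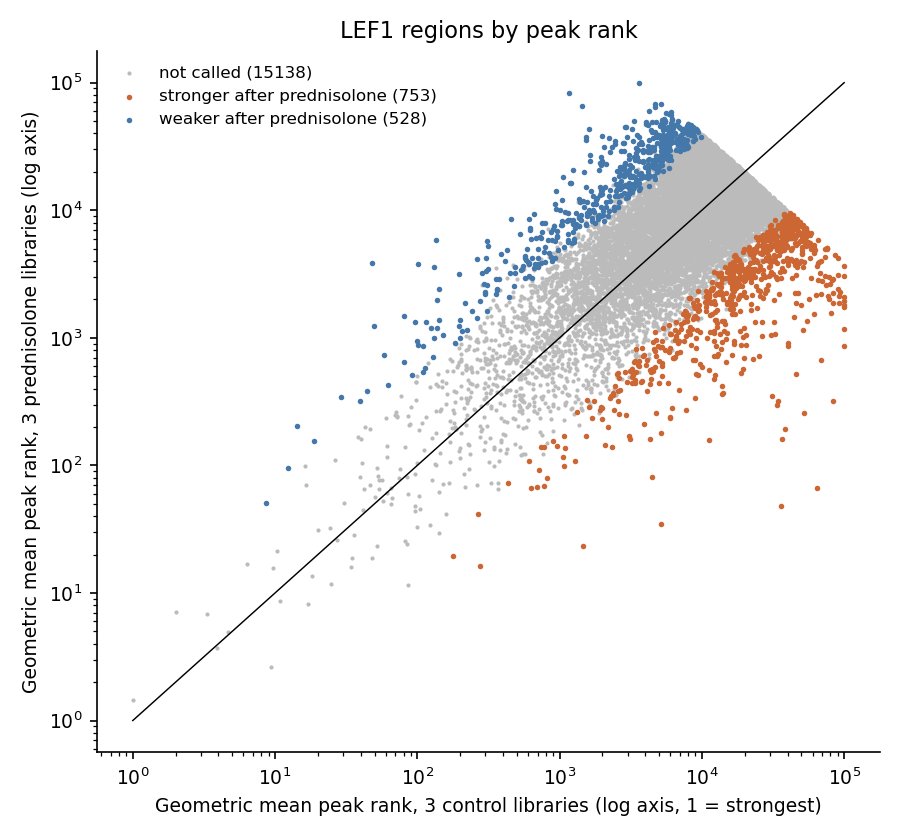
Geometric mean peak rank over the 3 control libraries (x, log axis) and the 3 prednisolone libraries (y, log axis) for each of the 16419 regions tested, with the 753 stronger and 528 weaker regions coloured. The stronger regions lie below the diagonal and reach ranks under 100, and the right-hand corner is cut by the limit on the mean rank of 20000.

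These counts rested partly on single libraries. Without control 2 there were 416 stronger and 185 weaker regions, and without control 3 there were 479 and 227. Without prednisolone 2 the counts were 247 and 182, and without prednisolone 3 they were 230 and 162. With the shortest-peak set as a covariate they were 717 and 514, close to the counts without it. A quantile-normalised fold in place of the rank gave 200 and 118. Across regions, ranks correlated at 0.670 to 0.794 between libraries of the same treatment and at 0.452 to 0.6305 between treatments, described over 16419 regions that share the libraries.

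The authors' fold moved with the rank. In control libraries 1, 2 and 3 the stronger regions had median folds of 4.43, 4.33 and 4.20, and in the prednisolone libraries 9.17, 9.81 and 9.24. The weaker regions had 9.34, 9.34 and 9.60 in control cells and 5.13, 4.10 and 4.25 after the drug. Regions that were not called stayed between 6.002 and 6.529 in all 6 libraries. These folds come from the same peaks as the ranks and are a description.

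By a rule on p, the 12 most clearly stronger and 12 most clearly weaker regions with groups that do not overlap are described, at most 1 per 1 Mb. Of the 12 stronger regions, 11 ranked past 20000 in every control library, and the other ranked between 2463 and 12520 there. Those 11 thus passed the filter only through the prednisolone libraries, and their p-values are a description. No hg19 annotation was used here. Genes are named from hg19 spans entered from general knowledge rather than from a file, so a gene name gives an approximate place and no exon or intron is given. The genes at and beside these regions were looked up after the regions were known. A region between a pair of genes is named by them where RefSeq lists them as neighbours, and otherwise by its chromosome.

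The region with the lowest p, chr3:34631284-34636076 (hg19), lay between PDCD6IP and ARPP21. It ranked 22565, 48785 and 43024 in the control libraries and 59, 43 and 43 after prednisolone, and the authors' folds were 4.18, 3.00 and 3.01 against 19.1, 22.7 and 25.1. The difference was 9.56 (SE 0.64, limma adjusted p = 8.64e-07). As this region passed the filter only through the prednisolone libraries, that p is a description and no separate support. Covered bases rose with it, from 966, 1037 and 1344 bp in control cells to 4716, 3939 and 4353 bp. A region between NUDT7 and VAT1L, chr16:77793157-77796870, ranked 67351 and 40516 in control 2 and 3 and had no peak among the first 100000 of control 1. After prednisolone it ranked 36, 174 and 46, with folds of 43.8, 29.4 and 38.7. A further one, chr8:26290356-26294834, already ranked 2463, 4361 and 12520 in control cells and reached 30, 42 and 34. It shows a gain at a site that LEF1 held before the drug.

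Of the other stronger regions, 4 lay in named genes. In TDRD9, an RNA helicase gene of germ-cell transposon silencing, chr14:104513613-104517179 ranked 58263 in control 1 and was absent from the first 100000 peaks of control 2 and 3. After prednisolone it ranked 355, 247 and 365. In SCFD2, chr4:54230530-54235855 ranked 28997, 70279 and 27759 against 280, 166 and 153, and it spanned the gene's start as entered. In DIP2C, chr10:319358-321697 ranked 40061, 28148 and 26348 against 553, 296 and 267, and it was joined by 2 further stronger regions within 24.6 kb. TLE1 encodes a Groucho corepressor that binds LEF1 itself. Its region chr9:84270272-84272591 had no peak among the first 100000 of any control library and ranked 895, 483 and 1516 after prednisolone. The difference there was at least 6.85, since the control side is set by the rank limit. Such a region could pass the filter only through the prednisolone libraries, and its tied control ranks have no spread, so that its p is too small and is not given. The other TLE1 region tested, chr9:84207789-84215312, ranked 2918, 2772 and 3249 against 633, 788 and 2460 and did not pass (difference 1.47, limma adjusted p = 0.190).

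GSK3B encodes the kinase of the beta-catenin destruction complex, and it was singled out after its values were seen. At chr3:119625469-119628759 it was absent from the first 100000 peaks of control 1 and ranked 62205 and 51383 in control 2 and 3. After prednisolone it ranked 1725, 252 and 686 (difference 6.68, SE 0.70, limma adjusted p = 5.77e-05). That difference is a lower bound, since control 1 is set at the rank limit. The region passed the filter only through the prednisolone libraries, so that its p is a description and no support. The adjacent region, chr3:119628915-119632326, ranked 13375, 12024 and 11137 against 645, 1341 and 1634 (difference 3.44, limma adjusted p = 0.00304). The groups did not overlap at either of them.

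The remaining stronger regions lay between GRAMD2B and ALDH7A1, between ERGIC3 and SPAG4, and on chromosomes 12, 8 and 5. Their differences were 7.82, 5.84, 7.68, 5.79 and 6.76. Those between ERGIC3 and SPAG4 (5.84) and on chromosome 8 (5.79) had no control peak among the first 100000, so that these 2 are lower bounds. That on chromosome 12 (7.68) had none among the first 100000 of control 1 and is a lower bound as well. Each kept its call in every alternative in which it was tested. At the regions between ERGIC3 and SPAG4 and on chromosome 8 the control ranks are tied at the limit. Their kept calls add no support, as leaving out a control library leaves the tie.

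**Figure D2:**
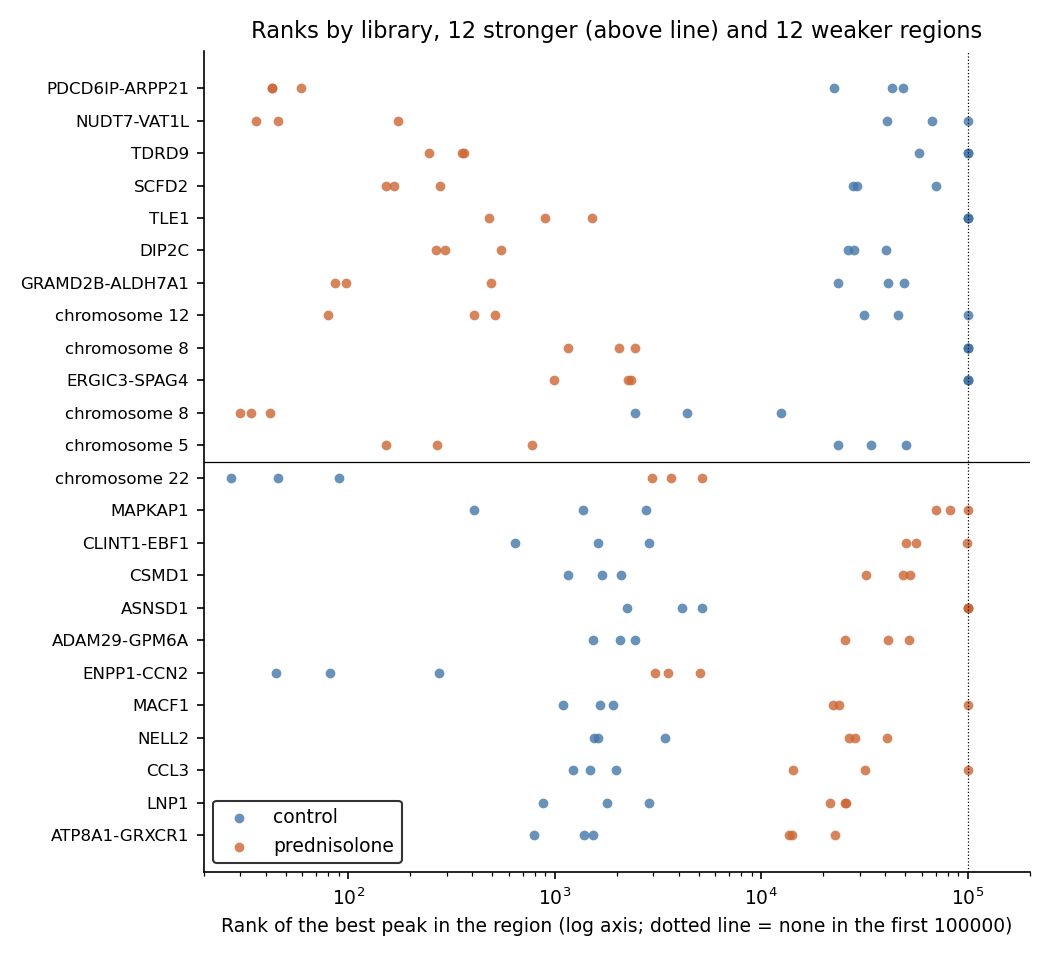
Rank of the best LEF1 peak (x, log axis) in each of the 3 control and 3 prednisolone libraries for 12 stronger and 12 weaker regions, each labelled by gene, by flanking genes or by chromosome. No control point overlaps the prednisolone points in any row, as the rule for choosing the regions required, and points on the dotted line had no peak among the first 100000.

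Differences among the named weaker regions ran from −3.78 to −6.32. The region with the lowest p, chr22:49302890-49310999, ranked 27, 46 and 90 in control cells, among the strongest LEF1 peaks of those lists. After prednisolone it ranked 5202, 3659 and 2972 (difference −6.32, SE 0.69, limma adjusted p = 8.53e-05). Its covered bases were 6309, 7072 and 7854 bp against 3936, 5796 and 3994 bp. Between ENPP1 and CCN2, the latter a matricellular protein gene, chr6:132237668-132240023 ranked 277, 82 and 45 against 3537, 3048 and 5039. Both sites thus kept a peak after the drug and left the top of the list.

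At other weaker regions some prednisolone libraries had no peak among the first 100000, or one of a high rank number. In MAPKAP1, which encodes a subunit of the mTORC2 kinase complex, chr9:128407892-128410772 ranked 407, 2773 and 1365 in control cells. After prednisolone it ranked 82156 and 70320 in libraries 1 and 2 and was absent from the first 100000 of library 3. In ASNSD1, chr2:190526536-190527872 ranked 2232, 5161 and 4138 and was absent from the first 100000 in every prednisolone library, so that it passed the filter only through the control libraries. That region covered 1292, 1281 and 1266 bp in control cells. Between CLINT1 and the B-lineage factor gene EBF1, chr5:157420075-157423495 ranked 2857, 1624 and 644 against 56002, 99425 and 50168. In CCL3, a chemokine gene, chr17:34416608-34418691 spanned the gene's start as entered and ranked 1993, 1231 and 1484 against 14228, 31921 and, in prednisolone 3, none of the first 100000 (difference −4.54, SE 0.69, limma adjusted p = 0.00115). The size of that difference is a lower bound, since prednisolone 3 is set at the rank limit. With the quantile-normalised fold the adjusted p at CCL3 was 0.0763 in limma, past the threshold.

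Among 19 tested regions of CSMD1, 1 was weaker and 1 was stronger. Weaker regions also lay in CSMD1, MACF1, NELL2 and LNP1, between ADAM29 and GPM6A and between ATP8A1 and GRXCR1. Their differences were −4.75, −4.63, −3.94, −3.87, −4.25 and −3.78. The size of that at MACF1 is a lower bound, since prednisolone 1 is set at the rank limit. MACF1 encodes a linker of actin and microtubules, and NELL2 a secreted neural protein. The calls at CSMD1 and LNP1 were lost with the quantile-normalised fold (limma adjusted p = 0.0651 and 0.134), and that at LNP1 also with peaks ordered by fold (limma adjusted p = 0.111). The weaker region of LNP1 overlapped 4250, 4652 and 4312 covered bases in control cells and 4257, 2819 and 3814 after the drug, so that breadth overlapped between the groups where rank did not.

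The promoters of CCL3 and SCFD2 are printed because a weaker and a stronger region spanned those starts. They are the 250 bases before the start in RefSeq on GRCh38.p14, at chr17:36090144-36090393 and chr4:53366062-53366311, both on the minus strand and written 5′ to 3′. Capitals mark CTTTG or its complement, the core of the LEF1 motif, and ACANNNTGT, the core letters of a glucocorticoid receptor element, searched on both strands.
CCL3: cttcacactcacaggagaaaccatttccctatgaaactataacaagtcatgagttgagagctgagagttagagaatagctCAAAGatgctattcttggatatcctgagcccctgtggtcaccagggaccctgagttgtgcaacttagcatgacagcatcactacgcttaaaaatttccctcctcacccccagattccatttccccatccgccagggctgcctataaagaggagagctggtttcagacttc
SCFD2: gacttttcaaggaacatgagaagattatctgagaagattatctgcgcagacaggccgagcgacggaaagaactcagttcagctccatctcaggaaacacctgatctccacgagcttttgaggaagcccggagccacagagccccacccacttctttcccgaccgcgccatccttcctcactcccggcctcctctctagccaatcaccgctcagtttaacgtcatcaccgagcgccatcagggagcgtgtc
The CCL3 window held 1 match of the CTTTG core and 0 of ACANNNTGT, and the SCFD2 window held 0 of both. Among 35116 promoter windows of this length, 42.1% held the core and 4.61% held ACANNNTGT. The longer forms CTTTGAA or CTTTGAT, found in 5.94% of all windows, were in neither. A match or its absence in these letters says nothing of binding, and the sequences of the regions themselves were not used here.

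Genes that glucocorticoids induce held 7 stronger LEF1 regions, most of them in 1 gene. The lists were chosen with earlier results of these data known. Of 22 genes on that list, 19 were placed on hg19 and 14 had a tested region within 10 kb. Among their 35 regions 7 were stronger (20%, against 4.59% of all regions tested) and 0 weaker (against 3.22%), and the median difference was 0.94 against −0.06 over all regions. Of these 7 regions 5 lay in 1 gene, ZBTB16, and the others in BCL2L11 and FKBP5. By gene, 3 of 14 glucocorticoid-induced genes with a tested region had a stronger one, and 3 of 11 cell cycle genes did. A count of regions that share a gene is no count of independent sites.

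ZBTB16 encodes the zinc-finger repressor PLZF and is a known glucocorticoid-induced gene. Of its 7 tested regions 5 were stronger, over 92.5 kb. At chr11:114048289-114052673 no control library had a peak among the first 100000, and the prednisolone libraries ranked it 4904, 470 and 696. The difference was at least 6.42, and as at TLE1 no p is given. The same region covered 4385, 3923 and 2622 bp after the drug. Next to it, chr11:114057138-114059456 ranked 12369, 47787 and 26484 against 746, 532 and 924 (difference 5.13, SE 0.64). The 3 other stronger regions had differences of 2.65, 2.64 and 2.81. The groups did not overlap at any of these 5. These 3 smaller calls changed with the settings. The first was lost with the quantile-normalised fold (limma adjusted p = 0.0604). The one at chr11:113987340-113989561 was lost without prednisolone 3 (difference 2.34, limma adjusted p = 0.0747) and with that fold (limma adjusted p = 0.0684), and the one at chr11:114013947-114015638 without prednisolone 2 or 3 (2.59 and 2.77, limma adjusted p = 0.0625 and 0.0599). A region between these groups, chr11:114041843-114045500, held LEF1 in both treatments, at 3559, 10127 and 12011 against 5030, 1593 and 2719, and did not pass (limma adjusted p = 0.200).

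**Figure D3:**
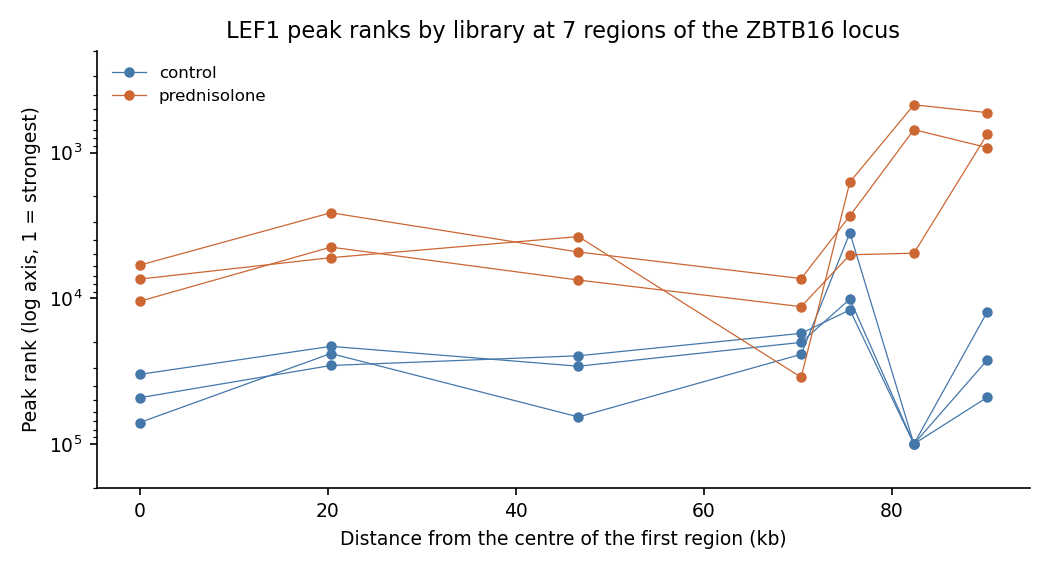
LEF1 peak rank (y, log axis with the strongest at the top) in each of the 6 libraries at the 7 tested regions of the ZBTB16 locus, by distance in kb from the centre of the first region. The prednisolone libraries lie above the control libraries at 5 regions, and the control points of one of them stand at the limit, with no peak among the first 100000.

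BCL2L11 encodes BIM, the BH3-only protein that mediates glucocorticoid-induced death of lymphoid cells. Its 1 tested region, chr2:111914119-111916151, had no peak among the first 100000 of any control library and ranked 2554, 3583 and 3028 after prednisolone. The difference was at least 5.05, and no p is given for the same reason as at TLE1. It covered 1629, 1770 and 1692 bp after the drug. Elsewhere within 10 kb of the gene the control libraries had weak peaks, the best at 51146, 44300 and 69671. It was the 1 call of its family: over 25 regions of the BCL2 family list, 1 was stronger (4%, against 4.59% of all) and 0 weaker (against 3.22%), with a median difference of −0.12.

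FKBP5 encodes a co-chaperone that restrains the glucocorticoid receptor and is itself strongly induced by it. Of its 5 regions 1 was stronger, chr6:35685806-35688671, at 16612, 40116 and 57541 against 4750, 1428 and 3464 (difference 3.56, SE 0.66, limma adjusted p = 0.00443). That call was lost with the quantile-normalised fold (limma adjusted p = 0.0979). The strongest FKBP5 region, chr6:35694045-35700567, spanned the start as entered and ranked 744, 1434 and 1494 against 1477, 516 and 1136. These groups overlapped (difference 0.29, limma adjusted p = 0.836). A gain within the gene therefore stood beside a start-side site whose ranks overlapped.

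Other members of the list had values without a call. TSC22D3, the gene of the leucine zipper protein GILZ, ranked 8249, 15880 and 7613 against 1732, 2948 and 4314 at chrX:106984035-106986500 (difference 1.83, limma adjusted p = 0.0767). TXNIP, an inhibitor of thioredoxin, ranked 9106, 10381 and 14629 against 3776, 4309 and 2681 (difference 1.66, limma adjusted p = 0.0848). Both sets of ranks did not overlap between the groups, as held for 28.2% of all regions tested. At DUSP1, a phosphatase of MAP kinases, the ranks of 2646, 2901 and 3607 against 2829, 2576 and 2379 overlapped. The receptor gene NR3C1 had no tested region, its best ranks being 18139, 25899 and 15761 in control cells and 18337, 26479 and 20363 after the drug.

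**Figure D4:**
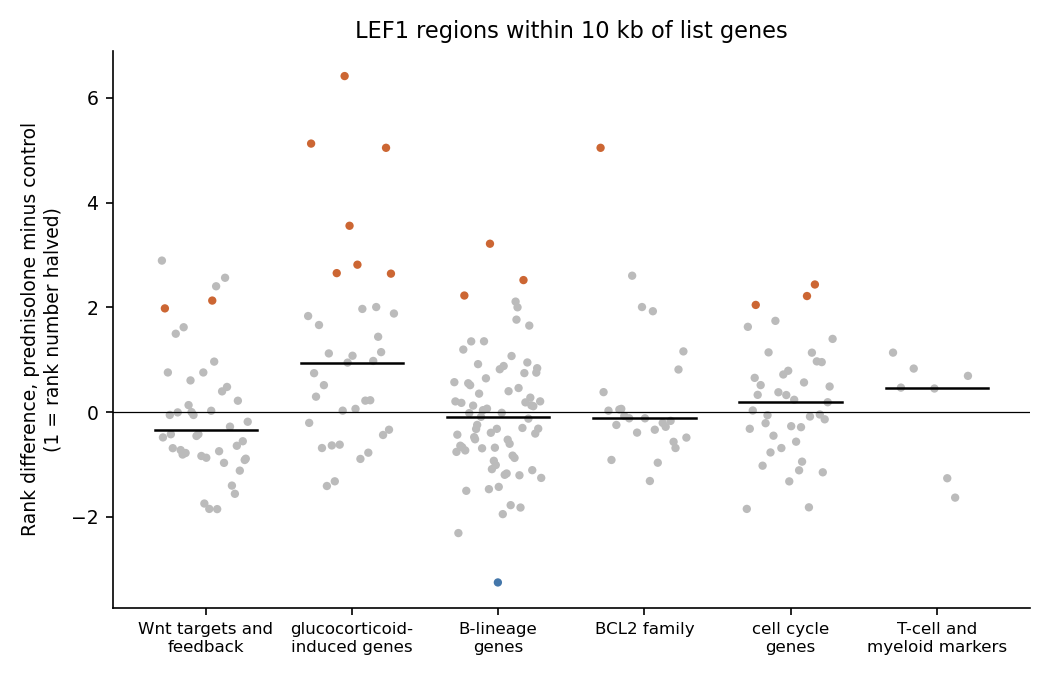
Difference in −log2(rank), prednisolone minus control (y), for each LEF1 region within 10 kb of a placed gene of 6 lists, with stronger regions orange, weaker blue, others grey, and the list median as a black line. The glucocorticoid-induced list has its median at 0.94 and the 5 ZBTB16 points among its 7 stronger regions.

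At Wnt targets and feedback genes the share of stronger regions was near that over all regions. Of 22 genes 18 were placed and 14 had a tested region. Among 44 regions 2 were stronger (4.55%, against 4.59% of all regions tested), 0 were weaker (against 3.22%), and the median difference was −0.35, with 16 of 44 above 0. AXIN2, the scaffold of the destruction complex and a standard Wnt target, held some of the strongest LEF1 peaks of the genome. At chr17:63551991-63558628 it ranked 42, 239 and 62 in control cells and 95, 4 and 4 after prednisolone (difference 2.89, SE 1.08, limma adjusted p = 0.109). The groups overlapped, since prednisolone 1 ranked below 2 of the controls. ZNRF3, which removes Frizzled receptors from the membrane, kept its best rank at 13, 10 and 7 against 13, 14 and 21. The LEF1 gene's own start-side region ranked 429, 333 and 327 against 101, 994 and 522 (difference −0.06, limma adjusted p = 0.976).

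The 2 stronger regions were at RNF43, another Frizzled regulator, and ID2, an inhibitor of E-proteins. RNF43 ranked 32677, 15790 and 14681 against 5212, 4687 and 5054 (difference 1.98, limma adjusted p = 0.0467). ID2 ranked 17744, 20731 and 10517 against 6886, 2445 and 2746 (difference 2.13, limma adjusted p = 0.0446). Both calls were close to the threshold. That at RNF43 was kept in 6 of 15 alternatives and was lost whichever library was left out, with differences of 1.61 to 2.19. That at ID2 was kept in 7 of 15, and leaving out any library but prednisolone 1 ended it.

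Among B-lineage genes, 75 regions at 20 placed genes of 25 included 3 stronger (4%, against 4.59% of all) and 1 weaker (1.33%, against 3.22%), with a median difference of −0.09. ERG, an ETS-family gene often altered in this kind of leukaemia, had a call in each direction. At chr21:39818951-39823518 it ranked 560, 672 and 659 against 5347, 4951 and 8143 (difference −3.25, SE 0.61, limma adjusted p = 0.00438). Elsewhere in the gene, chr21:39844595-39868743 ranked 5264, 5112 and 7612 against 1140, 1132 and 1553 (difference 2.23, limma adjusted p = 0.0309). The weaker call was lost with the quantile-normalised fold alone (limma adjusted p = 0.0534). The stronger one was kept in 8 of 16 alternatives, and leaving out any library but prednisolone 1 ended it, with differences of 2.04 to 2.38. SYK, the kinase downstream of the pre-B-cell receptor, had 2 stronger of 5 regions, with differences of 2.52 and 3.21, kept in 8 and 10 of 16 alternatives. Without prednisolone 2 or prednisolone 3 both SYK calls were lost, at differences of 2.44 and 2.90 for the first and 2.43 and 3.30 for the second. Without control 2 they were lost too (2.49 and 3.12). The first was also lost without control 1 (2.00) or prednisolone 1 (2.22), and the second without control 3 (2.77).

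Cell cycle genes held 3 stronger (7.32%, against 4.59% of all) and 0 weaker (against 3.22%) among 41 regions, at CCNE2, CDKN2D and E2F2, with a median difference of 0.19. Cyclin E2 drives entry into S phase, CDKN2D encodes the INK4 inhibitor p19, and E2F2 is a transcription factor of the same step. Their differences were 2.22, 2.44 and 2.05, with limma adjusted p of 0.0476, 0.0310 and 0.0447, and they were kept in 7 of 13, 9 of 13 and 6 of 15 alternatives. Left-out libraries ended each of these calls: controls 2 and 3 and prednisolone 3 at CCNE2 (2.04, 2.09 and 2.44), controls 1 and 3 and prednisolone 3 at CDKN2D (2.35, 2.03 and 2.50). At E2F2 it was lost without any library but control 1, with 1.64 as its lowest value. The T-cell and myeloid markers had 7 tested regions, of which 0 were called by limma against 7.8% of all, and 7 regions are too few to read anything from that. No list of markers bears on which cells were present, because peak lists hold no expression.

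Called regions lay near others of the same direction. Of the 753 stronger regions, 176 (23.4%) had another stronger region within 100 kb, against 12.4% of the regions not called. Of the 528 weaker ones, 69 (13.1%) had another weaker region that near, against 8.40%. A weaker region within 100 kb was found for 4.25% of the stronger regions. These shares are a description, since neighbouring regions are not independent. There were 18 runs of at least 3 stronger regions and 5 runs of weaker ones, chained over gaps of up to 100 kb.

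After ZBTB16, the longest stronger runs had 4 called regions each. They lay at chr4:78184245-78289947 (4 of 5 tested regions), chr17:41372921-41466463 (4 of 7), chr16:10772318-10908050 (4 of 6) and chr10:6252608-6407154 (4 of 6). The longest weaker run, chr2:92279372-92321927, held 6 weaker of 12 tested regions within 42.6 kb beside the centromere of chromosome 2, with differences of −2.56 to −3.66. Peaks there lie in repeated sequence where reads can be placed at several copies. A run of 4 weaker regions, chr1:200873829-201110780, took in INAVA and CACNA1S, with differences of −2.28 to −4.65. CRTC3, a coactivator of CREB, lay in a run of 3 weaker regions at chr15:91135873-91231493, which were all those tested in it.

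In windows of 1 Mb, the number of top peaks was higher after prednisolone in 46 windows (2.47% of the 1864 tested) and lower in 24 (1.29%), by limma on log2(count + 1). The clearest gain, chr6:169000001-170000000, had 7, 6 and 9 top peaks in control cells and 19, 20 and 18 after the drug (difference 1.28, SE 0.17). At chr4:164000001-165000000 the counts were 1, 1 and 2 against 6, 8 and 7. The window that holds the later part of ZBTB16 had 4, 2 and 4 against 12, 9 and 8, and that of BCL2L11 had 7, 11 and 11 against 15, 14 and 16. The clearest loss, chr2:54000001-55000000, had 22, 21 and 18 against 11, 12 and 12. The window that holds one end of TCF4, an E-protein gene, had 8, 9 and 5 top peaks against 1, 5 and 3, while 0 of the 16 tested regions of TCF4 itself were called. The counts of called windows rested on single libraries: without control 1 there were 7 and 2, without prednisolone 2 there were 14 and 13, without prednisolone 3 there were 19 and 19, and without prednisolone 1 they rose to 71 and 60. Losses fell to 10 without control 2 and 11 without control 3, and with 10000 top peaks the counts were 8 and 3.

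By chromosome, the share of tested regions that were stronger ran from 2.82% on chromosome 17 to 7.36% on chromosome 20, leaving out chromosome Y with its 34 regions, of which 4 were stronger and 0 weaker. The weaker share ran from 1.63% on chromosome 13 to 4.46% on chromosome 20. Chromosome 20 thus held the highest share in both directions, with 38 stronger and 23 weaker of 516. On chromosomes 11, 17, 18 and 21 weaker regions outnumbered stronger ones. The distribution of the 20000 top peaks over chromosomes shifted by at most 0.275 percentage points, on chromosome 1. Groups did not overlap for 4 of 24 chromosomes (16.7%), 10 and 22 being higher and 11 and 18 lower after the drug, each with an exact permutation p of 0.1 and an adjusted p of 0.6. Chromosome 22 held 2.23%, 2.16% and 2.20% of the top peaks in control cells and 2.34%, 2.30% and 2.32% after prednisolone. With 3 libraries against 3 the exact permutation test cannot go below 0.1. Without prednisolone 1 the groups did not overlap for 13 chromosomes.

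**Figure D5:**
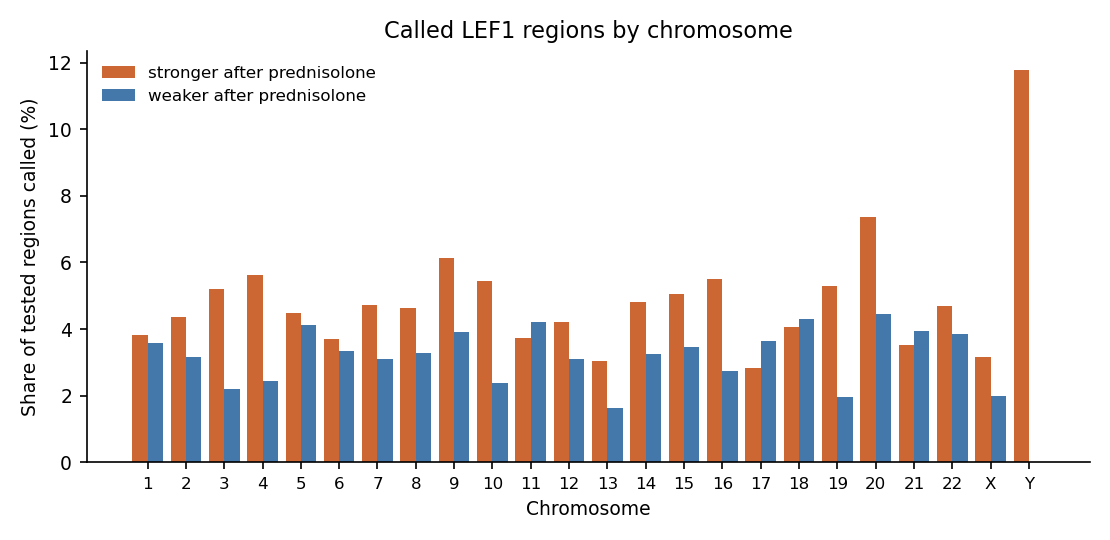
Share of tested LEF1 regions called stronger (orange) or weaker (blue) after prednisolone, in percent, by chromosome. Chromosome 20 stands at 7.36% and 4.46%, and the bar for chromosome Y rests on 4 of 34 regions.

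The lengths of LEF1 top peaks overlapped between the treatments. The median length of the top peaks was 1143, 1275 and 1409 bp in control cells and 1379, 1243 and 1138 bp after prednisolone, or 1276 ± 133 and 1253 ± 121 bp (mean ± SD, n = 3 each). The log2 difference was −0.02 (exact permutation test, two-sided, p = 0.7). Within the shortest-peak sets the difference in mean had the opposite sign, 47.5 bp in the set of control 1 and 37.0 bp in the other set. It also turned positive without control 3 (0.05) and without prednisolone 3 (0.04). Peaks of 2 kb or more made up 21.8% ± 5.24 and 20.6% ± 4.23 of the top peaks (exact permutation p = 0.7), with 1.66 and 0.780 percentage points within the sets.

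The log2 ratio of the median fold of the 1000 strongest peaks over that of the 20000 top peaks was 1.01, 1.00 and 0.99 in control cells and 1.11, 1.07 and 1.12 after the drug. The means were 1.00 ± 0.012 and 1.10 ± 0.027 (SD, n = 3 each), the groups did not overlap, and the exact permutation p was 0.1, the smallest possible. Within the sets the difference was 0.08 and 0.11, close to the 0.10 over all libraries. The strongest peaks alone had median folds of 13.1, 13.2 and 12.9 against 14.3, 13.3 and 13.4. The top peaks as a whole had 6.52, 6.58 and 6.50 against 6.63, 6.33 and 6.14, so that in prednisolone 2 and 3 the lower median of the top peaks also raised the ratio.

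LEF1 top peaks formed slightly more clusters after prednisolone. Clusters of 3 or more top peaks, with gaps of at most 10 kb, numbered 1090, 1100 and 1077 in control lists and 1121, 1111 and 1134 in prednisolone lists. They held 20.3% ± 0.183 and 20.7% ± 0.203 of the top peaks (SD, n = 3 each), a difference of 0.428 percentage points (exact permutation p = 0.1), with 0.133 and 0.713 within the sets. This direction turned with 50000 top peaks (−0.356) and with peaks of a −log10 q of at least 5 (−0.338).

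At the level of single regions, breadth followed rank. Covered bases come from the same peaks as the ranks, so that this is a description and no separate support. Covered bases were greater after prednisolone at 707 of the 753 stronger regions and at 66 of the 528 weaker ones, against 8015 of all 16419. By limma on log2(bases + 100), 54 regions were broader (0.329%) and 12 narrower (0.0731%), and of these 37 were among the stronger and 2 among the weaker regions. The ZBTB16 region named above was among them, from 0 bp in every control library. Since a region without a control peak counts as 0 bases, its difference depends on the constant added, and a case with peaks in all libraries is SPAG16, a gene of the sperm axoneme. At chr2:214959787-214971511 it covered 4401, 4010 and 4135 bp in control cells and 10769, 9630 and 9488 bp after the drug (difference 1.26, SE 0.09, limma adjusted p = 0.00100). Breadth also changed without a called change in rank: chr17:46249935-46253364 went from 2550, 2913 and 3406 bp to 896, 1247 and 1134 bp. Without prednisolone 1, 2 or 3 the counts of broader regions were 16, 4 and 6, and without control 1 they were 94. Narrower regions numbered 6, 1 and 3 without control 1, 2 or 3, and 3 and 1 without prednisolone 2 or 3. With the set as a covariate 19 were broader and 1 narrower, and with 50000 top peaks 0 regions were called in limma, against 54 and 12.

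TCF7L2, another TCF/LEF family member, was profiled in the same line and shows whether a second antibody moved at the same sites. Of all tested LEF1 regions, 51 had a stronger (0.311%) and 279 a weaker TCF7L2 rank (1.7%) by limma. Among the 753 regions where LEF1 was stronger, TCF7L2 was stronger at 31 and weaker at 1. Among the 528 where LEF1 was weaker, it was stronger at 1 and weaker at 33. The TCF7L2 difference was above 0 at 74.4% of the stronger LEF1 regions, at 17.8% of the weaker ones and at 39.7% of all regions tested. A TCF7L2 peak was among the first 100000 at 55.2%, 52.1% and 57.6% of the stronger regions in control libraries and at 81.5%, 69.6% and 68.9% after prednisolone. At the weaker regions these shares were 75.9%, 68.6% and 73.7% against 34.3%, 32.0% and 34.1%. Over all tested regions the share fell as well, from 65.0%, 57.6% and 62.4% to 48.8%, 44.3% and 46.5%.

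Single sites varied. TCF7L2 did not pass at MAPKAP1 (difference −2.03, limma adjusted p = 0.522) or SCFD2 (2.91, limma adjusted p = 0.187). At ASNSD1, where LEF1 was weaker, the TCF7L2 difference was 0.88 (limma adjusted p = 0.810). The sites that follow were picked from those where TCF7L2 passed. The region between NUDT7 and VAT1L had TCF7L2 ranks of 576, 466 and 380 after prednisolone, with none among the first 100000 of control 1 and 93379 and 58744 in control 2 and 3 (limma adjusted p = 0.00257). At CCL3, TCF7L2 ranked 1018, 1912 and 1683 in control cells, 72319 in prednisolone 2 and had no peak among the first 100000 of prednisolone 1 and 3. The region at chr22:49302890-49310999 had TCF7L2 ranks of 375, 292 and 355 in control cells and none among the first 100000 after the drug, while its LEF1 peaks stayed within the first 5202. The difference between the antibodies was tested by the interaction term of limma over all 12 libraries. It passed at 24 regions (0.146% of 16419), 17 with a higher and 7 with a lower LEF1 difference, and 10 of these 24 had no call for LEF1 alone. At 2 of them no TCF7L2 library had a peak among the first 100000, and at 5 at most 1 library did, so that the TCF7L2 ranks there had little or no spread and their p-values are too small. At others, such as chr22:24823500-24825965, every TCF7L2 prednisolone library stood at the limit, which lowers p in the same way. The counts rested on single libraries, as without control 1 or control 2 there were 0 in both directions, against 17 and 7 by limma, and without control 3 there were 1 and 0. Without prednisolone 2 or 3 there were 3 and 0, and without prednisolone 1 there were 36 and 23.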

How the data were processed

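LEF1 and TCF7L2 CUT&RUN peaks were called with MACS2 on hg19, per the submitters' processing notes, with 1 list per library. The deposited lists give each peak's fold (a ratio over modelled background), −log10 p, −log10 q and a score that is 10 times the −log10 p, per the values in the files. Read depth is not given in the sources used here, so no interval for depth was computed. The fold is the authors' own value and was used within lists, and on a quantile-normalised scale only as an alternative. The IgG sample was not analysed here.

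Members and gene lists were chosen with earlier results of these data known. Regions, ranks and filters are as given above. Tests used limma 3.58.1 (trend, robust) in R 4.3.3 with Benjamini-Hochberg adjustment, and two-sided exact permutation over 20 relabellings for library values. limma reported very small variances in some fits and offset them from 0, and which fits these were was not recorded. The main fit by rank was tested on simulated normal values, which held no ties at the rank limit and went through no filter. The other fits were not tested in this way. Python 3.11.15 with pandas 2.3.3 read the lists. Named regions were the 12 of lowest p in each direction with groups that did not overlap, at most 1 per 1 Mb, and the called regions of the lists.

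Gene spans on hg19 were typed from general knowledge and come from no file, which makes every gene assignment approximate. They were compared with the RefSeq gene table on GRCh38, and 133 of 154 genes with the same chromosome and a length within 10% were kept, 96 of 115 list genes. That filter was added after values had been seen. One gene whose span had been changed after the comparison was removed altogether. The filter left out MYC, IKZF1, RAG1 and VPREB1, the last of which had a weaker region. Genes beside named regions were entered once those regions were known. Tests over all genes, and the share of peaks at promoters, were planned and not run for want of an hg19 annotation.

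Same-numbered control and prednisolone libraries did not deviate together (r = −0.165, −0.0416 and −0.0680 over regions), so that the numbers were not used as pairs. p-values measure the spread between the libraries.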

Additional observations from a re-analysis of the deposited data

Results flagged for a closer look

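The treatment difference of LEF1 and that of TCF7L2 were compared at the same regions by the interaction term of limma. The LEF1 difference was above that of TCF7L2 at 17 regions and below it at 7 (0.146% of the regions tested). At the CDKN2D region, chr19:10675870-10676635, the LEF1 difference was above the TCF7L2 difference by at least 5.31 on the −log2(rank) scale. Every TCF7L2 prednisolone library stood at the rank limit there, so that its p is too small and is not given. With the replicate number as a block, 0 regions passed in either direction by limma, against 17 and 7.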

How the results depend on the processing

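Of 154 alternative values of the counts and library measures, 75 stayed within the limits for no change, 72 moved and 7 reversed. Of 607 for single regions, 538 kept their call and 69 lost it, and 0 reversed. The cause of these changes was not tested. Some single regions had a group tied at the rank limit, where a kept call adds no support. Counts are given as stronger or broader regions, or windows with more peaks, first.

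By rank (753 and 528), there were 488 stronger regions with 10000 top peaks, 1533 and 799 with 50000, 371 and 203 ordered by fold, 1648 and 970 without the filter, and 200 and 118 with the quantile-normalised fold. Leaving out 1 library gave 230 to 884 and 162 to 709. By breadth (54 and 12), there were 7 narrower regions with 10000 top peaks, 0 and 0 with 50000, 4 narrower ordered by fold, 19 and 1 with the shortest-peak set as a covariate, 316 and 90 without the filter, and 31 and 5 with a constant of 1 base. Leaving out 1 library gave 4 to 94 and 1 to 9. Windows (46 and 24) numbered 8 and 3 with 10000 top peaks, and those with fewer peaks 41 with 50000 and 37 ordered by fold, with 7 to 71 and 2 to 60 when 1 library was left out. Chromosomes without overlap (4) numbered 7 with 10000 top peaks, 1 with 50000 and 8 ordered by fold, and 4 to 13 with 1 library left out. The interaction counts (17 and 7) ran from 0 to 36 and from 0 to 23.

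The log2 difference in peak length reversed to 0.0185 with a −log10 q of at least 5, and ran from −0.101 to 0.0497 with 1 library left out, positive without control 3 (0.0497) and prednisolone 3 (0.0427). The share of peaks of 2 kb or more ran from −3.69 to 1.55 percentage points, positive without control 3 (1.55) and prednisolone 3 (0.808). The clustered share reversed with 50000 top peaks (−0.356) and with a −log10 q of at least 5 (−0.338).

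With the replicate number as a block, limma called 490 and 319 regions by rank and 28 and 3 by breadth. For the interaction it called 0 and 0. All 3 same-numbered differences in chromosome share had the same sign for 7 chromosomes. That is another measure than groups without overlap, and the counts cannot be set side by side. The numbers share only a number here, since same-numbered libraries did not correlate with each other. Alternatives for the promoter share and for all genes were not run. Absent read depth limits how far a missing peak can be read as absent binding.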
